A study of Mus musculus with 6 samples.

Results

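The insulin-like growth factor (IGF) axis was described here through 10 genes taken by name: the ligands Igf1 and Igf2, the receptors Igf1r and Igf2r, and the binding proteins Igfbp2, Igfbp3, Igfbp4, Igfbp5, Igfbp6 and Igfbp7. Of these 10, 9 had a row among the 23494 genes of the table. Igf2 is not analysed here. The 9 genes were measured by RNA sequencing in 6 libraries from female wild type C57BL/6 mice that carried subcutaneous tumours of B16F10, a transplantable mouse melanoma line. Mice of both groups thus bore a tumour. The 3 vehicle mice received phosphate-buffered saline and the 3 rMANF mice received recombinant MANF (mesencephalic astrocyte-derived neurotrophic factor, a secreted protein of the endoplasmic reticulum) at 2 µg/kg by daily intraperitoneal injection, begun when tumours averaged about 60 mm3 in groups of 8 mice. The sources used here state neither the mice's age nor how 3 of 8 were taken for sequencing. The labels describe the 3 vehicle samples by names that begin with IgG, while their titles say vehicle. What IgG stands for there could not be settled here. The labels name the tissue as heart and the samples as biological replicates. If they did not come from separate animals, the p-values measure only the spread between samples.

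IGF-1 and IGF-2 are small secreted growth factors related to insulin. They act through the IGF-1 receptor, a tyrosine kinase that feeds the PI3K-AKT-mTOR and RAS-MAPK routes, whereas the IGF-2 receptor, also the cation-independent mannose 6-phosphate receptor, carries IGF-2 and lysosomal enzymes to lysosomes. Binding proteins hold most IGF outside cells and can withhold it from the receptor or deliver it. In the heart, IGF-1 is known as a growth and survival signal for muscle cells and is also made by macrophages and fibroblasts.

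The libraries went against their tissue label, so they are called libraries labelled heart. Of 14 cardiac muscle markers 11 had rows, and these summed to 8.26 to 66.5 TPM (transcript abundance as a share of the library, corrected for gene length). The 2 highest by mean, Tnnt2 and Mb, reached at most 11.5 and 23.5 TPM, and Myl2 was listed at 0 TPM in 4 of the 6 libraries. Vehicle replicate 2 stood apart by the sums of its cardiac and skeletal muscle markers, though not every cardiac marker was highest there. Mitochondrially encoded genes summed to 30132 to 36907 TPM with vehicle and 19344 to 25713 TPM with rMANF. After rescaling without these and haemoglobin genes, the log2 differences were −0.75 (Igf1), 0.67 (Igfbp6) and 0.56 (Igfbp3), rMANF minus vehicle. They were −0.73, 0.69 and 0.57 before rescaling. Any further part of the mitochondrially encoded genes in the members' differences was not tested. TPM keeps no record of read number, so sequencing depth is unknown. Among the 12865 genes that averaged 1 TPM or more, limma called 0 between the groups at an adjusted p below 0.05, which is 0% of those tested. At an unadjusted p below 0.05 there were 2642 genes (20.5%), of which 67.7% lay higher with rMANF. Under median-of-ratios scaling there were 2842 such genes, of which 56.0% lay higher.

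The 9 measured genes spanned more than 2 orders of magnitude, with 4 of the 6 binding proteins above the ligand and both receptors and the other 2 below them. By mean TPM over the 6 libraries the order was Igfbp6 (217 TPM), Igfbp4 (164), Igfbp3 (153), Igfbp7 (84.7), Igf1r (14.7), Igf1 (4.83), Igf2r (4.72), Igfbp5 (1.34) and Igfbp2 (0.891). The top 4 lay within the highest 10% of rows in the table. Neighbours in this order were not always separate. Igfbp6 exceeded Igfbp4 in 5 of 6 libraries, Igfbp4 exceeded Igfbp3 in 3 and Igf1 exceeded Igf2r in 3, as did Igfbp5 with Igfbp2. Igfbp7 exceeded Igf1r, and Igf1r exceeded Igf1, in 6 of 6 libraries with no overlap of their ranges.

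**Figure D1:**
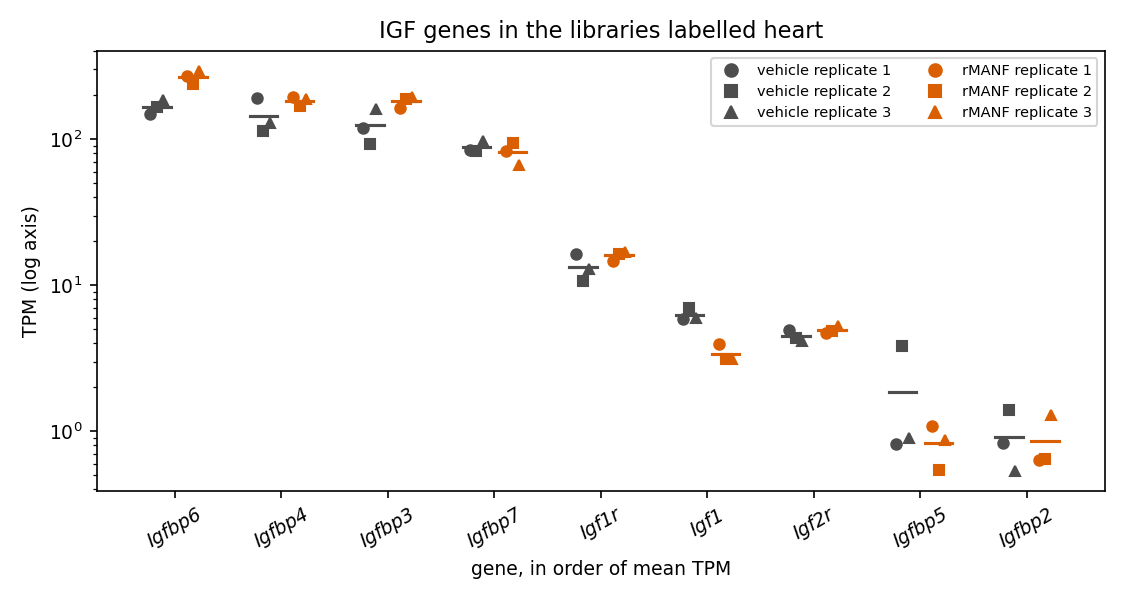
Level of each measured IGF gene in each library, in TPM on a log axis, with vehicle in grey and rMANF in orange, 1 symbol per replicate and a bar at the mean of 3. Igfbp6, Igfbp4, Igfbp3 and Igfbp7 sit near or above 100 TPM, Igf1 lies lower in all 3 rMANF libraries and vehicle replicate 2 stands high for Igfbp5.

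Between the groups, Igf1 lay lower with rMANF and Igfbp6 and Igfbp3 lay higher, each with no overlap between the 3 values of either group. None of the 8 members that could be tested passed limma's threshold, and Igf1 and Igfbp6 came nearest. Igfbp4, Igfbp7, Igf1r, Igf2r and Igfbp5 overlapped between groups. Without overlap, 2 of 8 tested members lay higher and 1 of 8 lower, against 18.9% and 9.02% of all tested genes, and counts of this size in 8 genes are near that background. At an adjusted p below 0.10, 2 of the 8 were called, against 2.73% of all tested genes. Igfbp2 averaged under 1 TPM and was not tested, and Igfbp5 passed the filter on low values through vehicle replicate 2.

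**Figure D2:**
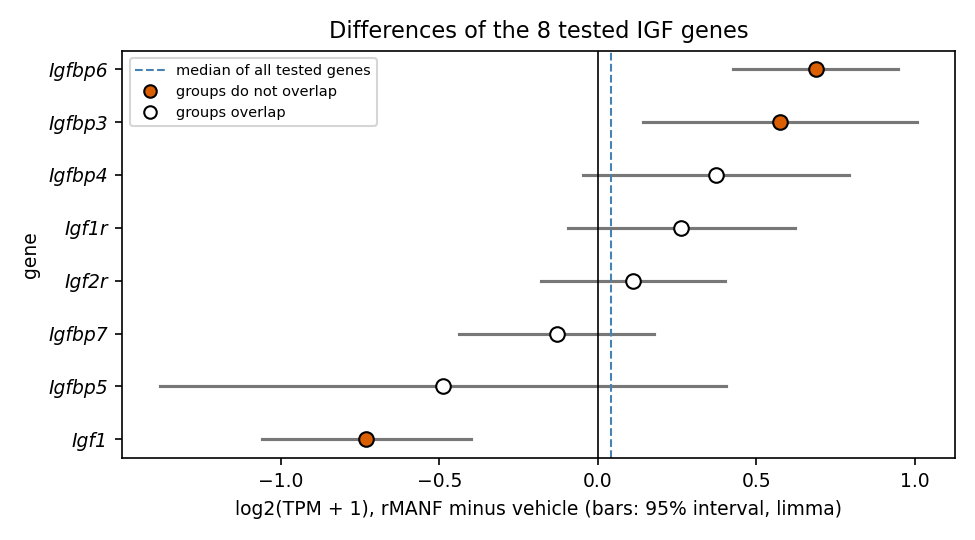
Difference of each tested member on the log2(TPM + 1) scale, rMANF minus vehicle, with limma's 95% interval as a bar, orange where the groups do not overlap and a dashed line at the median of all tested genes (0.04). The intervals of Igfbp6, Igfbp3 and Igf1 leave out 0, and those of the other 5 include it.

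Igf1, the ligand gene (ENSMUSG00000020053, chromosome 10, 87858265 to 87937042, plus strand, GRCm38), measured 5.87, 7.03 and 5.92 TPM in vehicle replicates 1, 2 and 3 and 3.97, 3.11 and 3.11 TPM in rMANF replicates 1, 2 and 3. Every rMANF library was below every vehicle library, and the vehicle mean was 1.85 times the rMANF mean (6.27 ± 0.657 against 3.39 ± 0.497 TPM, SD, n = 3 each). The log2(TPM + 1) difference was −0.73 ± 0.14 (SE, 95% interval −1.06 to −0.40), which missed the 0.05 threshold in limma (adjusted p = 0.0893, by Benjamini-Hochberg over all tested genes). The scale understates the change of a gene this low: with a pseudocount of 5 TPM in place of 1 the difference was −0.43, and with 0.1 TPM it was −0.87. Igf1 ranked 124th of 12865 genes by p. An exact two-sided permutation test gave p = 0.1, the smallest that 3 against 3 libraries allow, for Igf1 as for Igfbp3 and Igfbp6. The antisense gene Igf1os overlaps the span of Igf1 on the other strand, shares no exon bases with it and was listed at 0 TPM in 5 of 6 libraries. The library kit does not mark strand.

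Most markers of 2 cell types that can make IGF-1 lay lower along with it. All 14 macrophage markers lay lower with rMANF (median log2 difference −0.54), 8 of them without overlap, whereas 5499 of all 12865 tested genes lay lower and 9.02% did so without overlap. Their summed level was 3313 to 3767 TPM in the vehicle libraries and 1925 to 2620 TPM in the rMANF libraries. None was listed at 0 TPM in any library. The lysozyme gene Lyz2 measured 972 ± 21.9 and 562 ± 152 TPM, and the complement gene C1qa overlapped between groups. Of 11 measured fibroblast markers 8 lay lower (median −0.59), 6 of them without overlap, and 2 lay higher without overlap, against 18.9% of all tested genes on the higher side, with sums of 409 to 560 TPM against 352 to 455 TPM. The collagen gene Col3a1 measured 120 ± 43.2 and 86.1 ± 15.1 TPM and overlapped between groups, while Col6a3 was higher in every rMANF library. The part of these markers in the Igf1 difference was not tested, and in bulk RNA fewer cells of a type cannot be told from less RNA per cell.

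Neither receptor gene passed the test, and both overlapped between groups. Igf1r, whose product is the signalling receptor for both ligands (chromosome 7, 67952827 to 68233668, plus strand), stood at 16.5, 10.6 and 12.9 TPM in the vehicle libraries and at 14.6, 16.5 and 16.9 TPM in the rMANF libraries. Vehicle replicate 1 lay within the rMANF values and the other vehicle libraries lay below them. The log2 difference was 0.26 ± 0.15 (SE, 95% interval −0.09 to 0.62, limma adjusted p = 0.376), and it was 0.42 without vehicle replicate 1 and 0.12 without vehicle replicate 2.

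Igf2r (chromosome 17, 12682406 to 12769664, minus strand), the gene of the mannose 6-phosphate and IGF-2 receptor, stood at 4.97, 4.38 and 4.15 TPM in the vehicle libraries and at 4.70, 4.86 and 5.23 TPM in the rMANF libraries. The groups overlapped through vehicle replicate 1, and the difference was 0.11 ± 0.13 (SE, 95% interval −0.18 to 0.40, limma adjusted p = 0.665). It was 0.06 when vehicle replicate 3 was left out, 0.07 when rMANF replicate 3 was, 0.17 when vehicle replicate 1 was and 0.20 when vehicle replicates 1 and 2 both were. Airn, a noncoding gene on the other strand, overlaps 28354 bases of Igf2r without sharing exon bases and measured 1.25 to 2.51 TPM, so reads from retained introns of either gene could not be assigned by strand. Within a library Igf1r stood at 2.43 to 3.39 times Igf2r, with overlap between the groups.

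Igf1 stood lower relative to its receptor as well. The ratio of Igf1 to Igf1r, both in TPM, was 0.356, 0.662 and 0.458 in the vehicle libraries and 0.271, 0.189 and 0.184 in the rMANF libraries. All 3 rMANF ratios lay below all 3 vehicle ratios, and since the ratio is formed from members already described it is given with no test.

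Among the binding proteins, Igfbp6 and Igfbp3 were higher in every rMANF library. Their promoters are shown because both genes lay higher in the same libraries. Each line gives the 250 bases before the annotated start, 5′ to 3′ on the gene's strand, from RefSeq on GRCm38.p6, for which all 10 members matched. For Igfbp6 this RefSeq start lies before the GENCODE start used for its position below. Its window ends at 102144185 and its GENCODE span begins at 102144362. Capitals mark motif matches on either strand. The TATA box was searched with the letters TATAAA. The second motif, the CCAAT box, was searched by the letters of its name. The third, known as the GC box and a common element of promoters without a TATA box, was searched with the letters GGGCGG. No matches overlap one another in these windows.
Igfbp6, chr15:102143936-102144185, plus strand: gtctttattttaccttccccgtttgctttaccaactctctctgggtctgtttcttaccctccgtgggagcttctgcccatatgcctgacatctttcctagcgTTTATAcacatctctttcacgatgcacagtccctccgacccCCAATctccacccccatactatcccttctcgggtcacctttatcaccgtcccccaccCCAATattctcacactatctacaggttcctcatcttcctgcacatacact
Igfbp3, chr11:7213924-7214173, minus strand: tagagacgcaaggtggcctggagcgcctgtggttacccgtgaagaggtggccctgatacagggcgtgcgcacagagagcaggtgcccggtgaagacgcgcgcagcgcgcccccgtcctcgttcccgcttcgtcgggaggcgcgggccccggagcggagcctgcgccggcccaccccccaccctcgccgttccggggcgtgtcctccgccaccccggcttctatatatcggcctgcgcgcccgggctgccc
The Igfbp6 window held a TATA box match in the reverse direction and 2 CCAAT matches. The Igfbp3 window held no match to the letters searched. It does hold the letters tatatat near its end, which a search for TATAAA does not count, so a TATA-like element there was not tested. Over all 32851 such windows, 12.4% held the TATA box, 33.8% the CCAAT box and 32.7% the GC box. The windows also differed in composition, with 49.6% G and C for Igfbp6 and 73.2% for Igfbp3, against a median of 52.4% over all windows. A match is a description of letters only. The RefSeq window of Igf1 is not printed because it holds an annotated exon of that gene.

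Igfbp6 (ENSMUSG00000023046, chromosome 15, 102144362 to 102149511, plus strand) encodes a binding protein known for its preference for IGF-2. It measured 149, 165 and 186 TPM in vehicle replicates 1, 2 and 3 and 272, 239 and 294 TPM in rMANF replicates 1, 2 and 3. The lowest rMANF library stood above the highest vehicle library by more than the whole range of the vehicle group. The rMANF mean was 1.61 times the vehicle mean (268 ± 27.9 against 166 ± 18.5 TPM, SD, n = 3 each), a log2 difference of 0.69 ± 0.11 (SE, 95% interval 0.43 to 0.95). It ranked 38th of 12865 genes by p and did not pass limma's test (adjusted p = 0.0893). Transcripts of Igfbp6 are rich in G and C (60.7%, above 97.4% of tested genes), and with each library's trend on GC content removed, an alternative chosen after seeing the data, its difference was 0.44 (adjusted p = 0.124).

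Igfbp3 (ENSMUSG00000020427, chromosome 11, 7206086 to 7213923, minus strand), the main carrier of IGF in blood, stood at 119, 92.3 and 161 TPM in the vehicle libraries and at 163, 187 and 195 TPM in the rMANF libraries. The groups were separated by little, since vehicle replicate 3 and rMANF replicate 1 nearly met. The rMANF mean was 1.46 times the vehicle mean (182 ± 16.8 against 124 ± 34.8 TPM, SD, n = 3 each), with a log2 difference of 0.57 ± 0.19 (SE, 95% interval 0.14 to 1.01, limma adjusted p = 0.155). The separation ended under median-of-ratios and quantile scaling, after TPM was rescaled leaving out mitochondrially encoded and haemoglobin genes, and with the GC trend removed. The difference was 0.38 without vehicle replicate 2, 0.29 with library weights, 0.78 when vehicle replicate 3 was left out and 0.16 when vehicle replicates 1 and 2 both were. Endothelial markers lay higher in the same libraries, 11 of 12 by sign and 4 without overlap (median 0.26), against 7366 of 12865 tested genes by sign and 18.9% without overlap. They had sums of 157 to 192 TPM in vehicle and 202 to 231 TPM in rMANF libraries and none listed at 0 TPM. The 2 highest of that list, Eng and Egfl7, overlapped between groups. Their part in the Igfbp3 difference was not tested.

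Igfbp4 (chromosome 11, 99041244 to 99054392, plus strand), known mainly as an inhibitor of IGF action, stood at 193, 113 and 129 TPM in the vehicle libraries and at 193, 169 and 188 TPM in the rMANF libraries. Vehicle replicate 1 matched the rMANF libraries and the other 2 vehicle libraries lay below them. The log2 difference was 0.37 ± 0.18 (SE, 95% interval −0.05 to 0.79, limma adjusted p = 0.291). It was 0.60 without vehicle replicate 1 and 0.22 without vehicle replicate 2. With estimated library weights it passed the threshold (difference 0.50, adjusted p = 0.0399), as did Igf1 (−0.67, adjusted p = 0.0324) and Igfbp6 (0.58, adjusted p = 0.0264), in a fit that called 737 genes in all.

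Igfbp7 (chromosome 5, 77349240 to 77408041, minus strand), a secreted relative with low affinity for IGF that is abundant in vessel walls, was the 1 abundant binding protein whose mean was not higher with rMANF. It stood at 84.4, 82.6 and 97.7 TPM in the vehicle libraries and at 82.9, 93.5 and 66.9 TPM in the rMANF libraries. Only rMANF replicate 3 lay outside the vehicle range, below it. The difference was −0.13 ± 0.13 (SE, 95% interval −0.44 to 0.18, limma adjusted p = 0.626). It was 0.00 without rMANF replicate 3, −0.24 without rMANF replicate 2, −0.06 without vehicle replicate 3, −0.28 when vehicle replicates 1 and 2 were left out and −0.23 under library weights, and with the GC trend removed it was −0.33 and the groups no longer overlapped (adjusted p = 0.176). Igfbp7 transcripts, at 59.0% G and C, lie above 93.7% of tested genes. Polr2b on the other strand shares 85 exon bases with Igfbp7 and measured 31.0 to 49.5 TPM.

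Igfbp5 and Igfbp2 averaged near the 1 TPM filter. Igfbp5 (chromosome 1, 72857932 to 72874884, minus strand), a binding protein known from muscle and bone, stood at 0.819, 3.83 and 0.898 TPM in the vehicle libraries and at 1.09, 0.542 and 0.878 TPM in the rMANF libraries. Vehicle replicate 2 alone stood high. The difference of −0.49 ± 0.39 (SE, 95% interval −1.38 to 0.40, limma adjusted p = 0.518) was −0.03 without that library. Skeletal muscle markers were highest in the same library: the 20 of them summed to 1617 TPM there and to 149 to 258 TPM in the other 5 libraries. Of 19 tested, all lay lower with rMANF, 14 without overlap, against 5499 of 12865 tested genes by sign and 9.02% without overlap. Several of the 19, such as Myh2 and Mybpc2, reached the 1 TPM filter only through vehicle replicate 2. Myh2 measured 5.11 TPM there and at most 0.583 TPM elsewhere, and Mybpc2 12.7 and at most 0.965 TPM. For such genes the filter itself favours a lower sign with rMANF. The part of the skeletal muscle markers in the Igfbp5 values was not tested. The enolase gene Eno3 held 125 to 172 TPM of each sum, and the muscle actin gene Acta1 measured 232 TPM in vehicle replicate 2 and 0.339 to 31.4 TPM elsewhere. Without Eno3 the marker sums were 132, 1445 and 33.9 TPM in vehicle replicates 1, 2 and 3. They were 23.4, 9.71 and 8.28 TPM in rMANF replicates 1, 2 and 3. Igfbp2 (chromosome 1, 72824503 to 72852474, plus strand) stood at 0.826, 1.40 and 0.538 TPM in the vehicle libraries and at 0.641, 0.641 and 1.30 TPM in the rMANF libraries, with full overlap.

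Summed over the 6 genes, binding protein transcripts made up 547, 458 and 575 TPM in the vehicle libraries and 713, 689.9 and 746 TPM in the rMANF libraries. All rMANF sums were above all vehicle sums, and the sum is given with no test. Igfbp6 held 27.2% to 36.0% of the sum with vehicle and 34.6% to 39.4% with rMANF, and Igfbp7 held 15.4% to 18.0% and 8.96% to 13.6%. The Igfbp7 share was lower in every rMANF library. The shares of Igfbp3 (20.1% to 28.0% over the 6 libraries) and Igfbp4 (22.4% to 35.2%) overlapped between groups. For each 100 TPM of binding protein transcripts there were 1.03 to 1.53 TPM of Igf1 in the vehicle libraries and 0.416 to 0.556 TPM in the rMANF libraries.

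**Figure D3:**
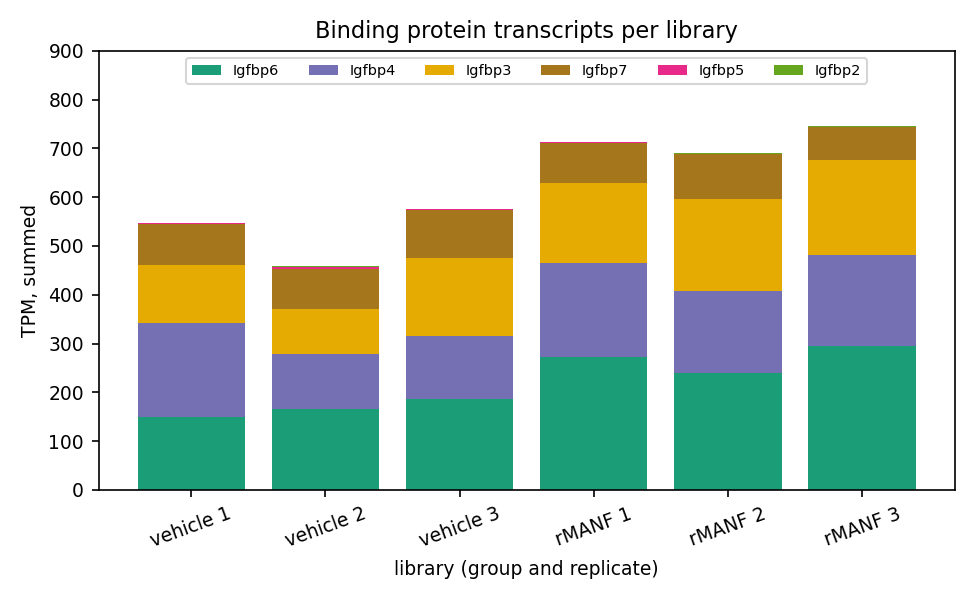
Stacked bars of the TPM of the 6 binding protein genes in each library, from 0. The bars of the 3 rMANF libraries (689.9 to 746 TPM) are taller than those of the 3 vehicle libraries (458 to 575 TPM), mostly through Igfbp6 and Igfbp3.

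The members' differences kept their sign under every alternative tried except for Igfbp7, whose value came to 0.00 without rMANF replicate 3. The other filters, the variance models and the replicate block leave a difference unchanged by design and alter only its error and p. Igf1 ran from −0.87 to −0.43 over 19 alternatives and Igfbp6 from 0.44 to 0.77 over 20. Igfbp5 ran from −0.76 to −0.03 and Igfbp7 from −0.33 to 0.00.

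**Figure D4:**
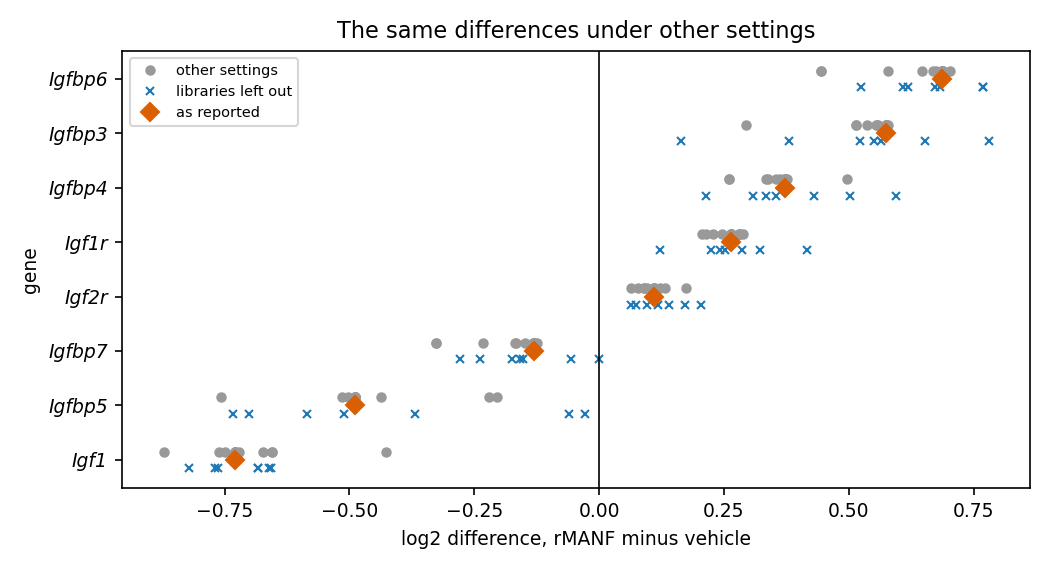
Log2 difference of each tested member as reported (diamonds), with libraries left out (crosses) and under other settings (grey points). Igfbp6 and Igf1 stay apart from 0, and Igfbp5 and Igfbp7 come near it when 1 library is left out.

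Genes that act on the binding proteins or resemble them were sparse, and none passed limma's test. Of 20 names on this list 13 had rows and 8 were tested, with a median difference of 0.22, 7 higher and 1 lower. Of all 12865 tested genes, 7366 lay higher, and 18.9% lay higher without overlap. On the list 1 gene lay higher without overlap, Kazald1, a secreted protein with a binding protein-like domain (2.67 ± 0.253 and 3.37 ± 0.603 TPM). The protease gene Htra1 was the most abundant (109 ± 32.9 and 125 ± 1.74 TPM, adjusted p = 0.514). The genes left untested were Igfals, Pappa, Pappa2, Stc2 and Nov, named here after their values were seen. Pappa and Pappa2, whose products cleave IGF binding proteins, reached at most 0.0687 and 0.193 TPM.

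Of the signalling genes downstream of the receptors, 0 of 36 tested passed limma's threshold. Their median difference was 0.11 against 0.04 for all tested genes, 30 lay higher and 6 lower, and 11 had an unadjusted p below 0.05, all of them higher. Of all 12865 tested genes, 7366 lay higher and 1789 did so at an unadjusted p below 0.05. The groups did not overlap for 13 higher (36.1%, against 18.9% of all genes) and 1 lower, the adaptor gene Grb10. Under median-of-ratios scaling these were 8 higher (22.2%, against 16.6% of all genes) and 3 lower, and with the GC trend removed 9 higher (25.0%, against 17.8%) and 0 lower, so the shares came nearer to the background. Those of smallest p included Foxo4, a transcription factor held back by AKT (34.3 ± 3.50 and 49.3 ± 1.48 TPM, adjusted p = 0.0893), the kinase gene Gsk3a (57.6 ± 1.88 and 72.9 ± 3.17 TPM, adjusted p = 0.101) and the adaptor gene Shc1 (51.2 ± 3.95 and 68.7 ± 5.83 TPM, adjusted p = 0.101). Of the 3 most abundant, Akt1 measured 144 ± 10.2 and 172 ± 16.5 TPM, Eif4ebp1, an inhibitor of translation that mTOR switches off, 129 ± 17.0 and 153 ± 6.52 TPM, and Rheb, an activator of mTOR, 128 ± 12.1 and 126 ± 10.4 TPM.

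In the growth hormone axis, which drives Igf1 in many tissues, 7 of 8 genes were tested and 0 passed. The median was 0.05, near that of all genes. Without overlap 1 gene lay higher and 1 lower, against 18.9% and 9.02% of all tested genes. The transcription factor gene Stat5b was higher without overlap (18.8 ± 2.20 and 23.3 ± 0.648 TPM, adjusted p = 0.174). Socs2, a feedback inhibitor of growth hormone signalling, was lower without overlap (1.95 ± 0.417 and 1.14 ± 0.301 TPM, adjusted p = 0.261).

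The mannose 6-phosphate pathway that shares Igf2r had 11 tested genes of 12, of which 0 passed, with a median of 0.06. Without overlap 2 lay higher and 1 lower, shares near those of all tested genes (18.9% and 9.02%). Gga1, an adaptor that sorts the receptors at the Golgi (39.2 TPM with vehicle and 51.0 with rMANF), and Plaur, the urokinase receptor (209 ± 12.8 and 240.2 ± 3.95 TPM), were higher without overlap. The cathepsin gene Ctsb was lower without overlap (663 ± 36.8 and 594 ± 12.9 TPM, adjusted p = 0.283), and Ctsd and Ctsl overlapped (adjusted p = 0.470 and 0.861).

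On a list of imprinted genes and a list of the RNA-binding Igf2bp genes with related genes, the groups overlapped for every gene that reached the 1 TPM filter. Of all tested genes, 18.9% lay higher and 9.02% lower without overlap. Of 20 imprinted genes 8 were tested, with a median of −0.02, led in level by Gnas (277 ± 22.8 and 261 ± 12.7 TPM). H19, the noncoding neighbour of Igf2, is named here after its values were seen. It stood at 4.18, 15.0 and 1.27 TPM in the vehicle libraries and at 0.871, 4.40 and 0.245 TPM in the rMANF libraries, with its highest value again in vehicle replicate 2. On the Igf2bp list, Igf2bp2 (49.3 ± 9.82 and 53.3 ± 2.20 TPM) and Hmga2 (43.3 ± 15.3 and 51.3 ± 4.56 TPM) were tested and overlapped.

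**Figure D5:**
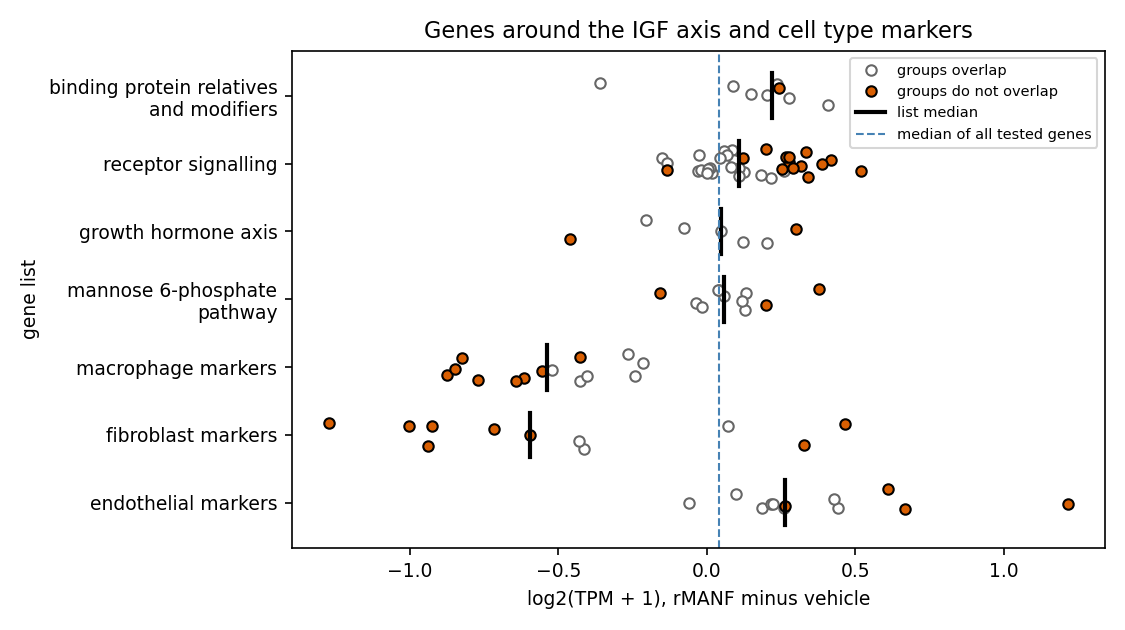
Log2 difference of each tested gene, 1 row of points per list, with list medians as bars and the median of all tested genes (0.04) dashed. Receptor signalling genes spread from −0.15 to 0.52, macrophage markers all lie below 0 and endothelial markers lie mostly above it.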

How the data were processed

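RNA was measured in 6 libraries, 3 vehicle and 3 rMANF, grouped by the titles in the labels. The kit was Nextera XT and the lysis reagent QIAzol, per the labels' protocols. Salmon 0.14.1, HTSeq 0.11.0, fastp, cutadapt and build mm10 are named, without their roles, per the submitters' processing notes. The authors deposited log2 TPM per gene and library, where −9 stands for 0 TPM. Converted back, each library summed to within 19.5 of 1000000 TPM.

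Differences are rMANF minus vehicle on log2(TPM + 1) for genes averaging 1 TPM or more, by limma 3.58.1 in R 4.3.3 (mean-variance trend, two-sided, Benjamini-Hochberg over all 12865 genes, threshold 0.05, 95% intervals). The procedure was tested on simulated data. Single values were also tested by exact permutation over the 20 assignments of libraries. TPM gives no depth, so precision is that of the spread between 3 libraries.

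The members and lists were chosen with earlier results of these data known. All members are named. From each IGF-related list the rule names genes passing limma, up to 4 without overlap by smallest p and up to 3 with a mean of at least 100 TPM, and from marker lists the 2 of highest mean. A gene that this rule names is not reported here. Lists are described by counts and medians. Positions, and the GC content of transcripts, were taken from GENCODE M21 (GRCm38, the assembly of mm10), with GC content for 12828 of 12865 genes (99.7%). Alternatives were other pseudocounts, filters, scalings and variance models, library weights, the replicate block, libraries left out and, added after seeing the data, subtraction of a loess fit on GC content (span 0.5) in every library.

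Of the marker lists not described with a member, the 5 melanocyte rows summed to 93.4 to 191 TPM, nearly all Gpnmb, the 3 hepatocyte rows to at most 1.15 TPM, the 12 cell cycle genes to 1487 to 1628 TPM, the 10 pericyte and smooth muscle genes to 106 to 128 TPM, the 4 haemoglobin rows to 196 to 679 TPM, and the 11 mitochondrially encoded rows to the values given with the members.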

Additional observations from a re-analysis of the deposited data

How the results depend on the processing

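All 8 tested members stayed below the threshold in every fit except the one with library weights, which called 3 members, 2 genes of the IGF-related lists and 737 genes in all. At a threshold of 0.10 the counts were 2, 1 and 351. The count over all genes was 13 without vehicle replicates 1 and 2 together (1 vehicle library then remains, assumed to vary like the rest), 1 with the GC trend removed, and 0 to 4 when 1 library was left out (4 without vehicle replicate 1, 2 without rMANF replicate 1). Members without overlap numbered 3 as reported, 6 without vehicle replicate 1, 7 without vehicle replicates 1 and 2 together and 3 in each other fit that left out 1 library. These counts rise with fewer libraries for all genes too. Without vehicle replicate 1 the members were 5 higher and 1 lower, against 32.1% and 12.9% of all tested genes. Without vehicle replicates 1 and 2 together they were 5 higher and 2 lower, against 37.4% and 22.4%. When 1 library was left out, the Igfbp7 difference ran from −0.24 without rMANF replicate 2 to 0.00064 without rMANF replicate 3, where its sign turned. Over all alternatives its lowest value was −0.33, with the GC trend removed. The cause was not tested. With the replicate number as a block, 3 genes were called and 0 members. After each gene's group mean was subtracted, same-numbered libraries of the groups correlated at −0.07, 0.03 and 0.05 across genes. Differently numbered libraries correlated at −0.15 to 0.12, so the numbers were not taken as pairs. With the replicate block and the GC trend removed 0 genes were called. Of 157 values for single members under alternatives, 153 kept direction and side of the threshold, 3 came past it with library weights and 1 changed sign. The number of libraries, 3 per group, and the unknown depth limit what could be detected, most of all for Igfbp2 and Igfbp5.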
